A study of Mus musculus with 16 samples.

Results

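Liver RNA of FVB/NCrl mice exposed to diphenyl phosphate (DPhP) at 10 mg/L was compared directly with that of FVB/NCrl mice exposed to DPhP at 1 mg/L. DPhP is an organophosphate diester, used in industry and also formed when aryl phosphate flame retardants and plasticisers are broken down in the body. The 8 libraries were chosen by the labelled concentration alone, out of 16 in the whole series. They are C3-1, C3-2, C3-3 and C3-4 at 10 mg/L and C2-1, C2-2, C2-3 and C2-4 at 1 mg/L, and values below keep that order. Untreated mice and mice at the lowest concentration were not compared here. Both groups received DPhP, so every difference below is between 2 concentrations and not from an unexposed state. Livers of a group were pooled into 1 extract, and its 4 libraries are, per the submitters, analytical replicates of that pool. The p-values therefore measure the spread between libraries of 1 pool, and a difference between concentrations cannot be told apart from a difference between the 2 pools. The sources used here give no age, sex, number of animals or route of exposure.

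Hepatocytes, which make up most of the liver's mass, secrete acute phase proteins such as serum amyloid A when cytokines of the interleukin-6 and interleukin-1 families act on them. Glucocorticoids act with these cytokines and also raise genes of gluconeogenesis and amino acid breakdown, while metallothioneins, small proteins that bind zinc and copper, respond to metals and to glucocorticoids. Immediate early genes such as Fos encode transcription factors that are induced within minutes of many stimuli and need no new protein for it.

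Total counts were 33189711, 20343210, 19400712 and 18854980 reads in the 10 mg/L libraries, against 45109243, 40652089, 15611309 and 16311207 reads in the 1 mg/L libraries. An index of nuclear-retained RNA, the mean log2 CPM (counts scaled to library size by the trimmed mean of M values, TMM) over Neat1, Malat1, Kcnq1ot1 and Xist, was 9.14, 9.17, 9.26 and 10.03 at 10 mg/L, against 9.07, 8.92, 10.22 and 10.13 at 1 mg/L. C3-4, C2-3 and C2-4 thus stood apart from the others of their own pools. Reads in the ribosomal RNA locus gene CT010467.1 made up 0.699% to 2.64% of counts at 10 mg/L, against 0.497% to 13.6% at 1 mg/L, with the 2 highest shares in C2-3 and C2-4. The hepatocyte marker Alb, encoding albumin, had 42689.5, 33905, 33654 and 21853 CPM at 10 mg/L, against 48406, 52202, 18528 and 23738 CPM at 1 mg/L, and took the most counts of any gene in C3-1, C3-2, C3-3, C2-1 and C2-2. Results are given with all 8 libraries and with the 5 that are left without C3-4, C2-3 and C2-4. Among those 5 both 1 mg/L libraries were deeper than each 10 mg/L library.

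With all 8 libraries, 14 genes differed between 10 and 1 mg/L, and the largest differences were in genes of the acute phase and metallothionein group. Saa1, Saa2, Lcn2, Mt2, Mt1, Cdkn1a, Hspa1a, Hspa1b, Trp53inp1, Gm45774 and Gm15883 were higher at 10 mg/L, and Cyp26b1, Xlr3a and Gm29920 were lower. A gene was called at a Benjamini-Hochberg adjusted p under 0.05 in edgeR's quasi-likelihood test, which all adjusted p-values below come from. The calls were 0.0844% of 16581 genes tested, 0.0663% higher and 0.0181% lower. At least 2-fold differences were called in 11 higher (0.0663%) and 2 lower (0.0121%) genes. There were 1292 genes (7.79%) at an unadjusted p under 0.05, and DESeq2 called 191. In each of the 14 the 10 mg/L and 1 mg/L libraries did not overlap, C3-4 lay on the same side of both C2-3 and C2-4, and the gene was also called in the same direction without those 3 libraries. The 14 were called on these same libraries, so this describes them and is not a further test. Over all genes tested, groups without overlap were found with 10 mg/L above in 3.27% and below in 2.42%. Leaving out 1 library at a time gave 6 calls without C3-1, C3-2, C3-3 or C2-1, 7 without C2-2 or C2-4, 12 without C2-3 and 17 without C3-4. Saa1, Saa2, Lcn2, Mt1, Mt2 and Gm45774 were called in each of those 8 fits, while the other 8 genes lost their call in at least 5 of them.

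**Figure D1:**
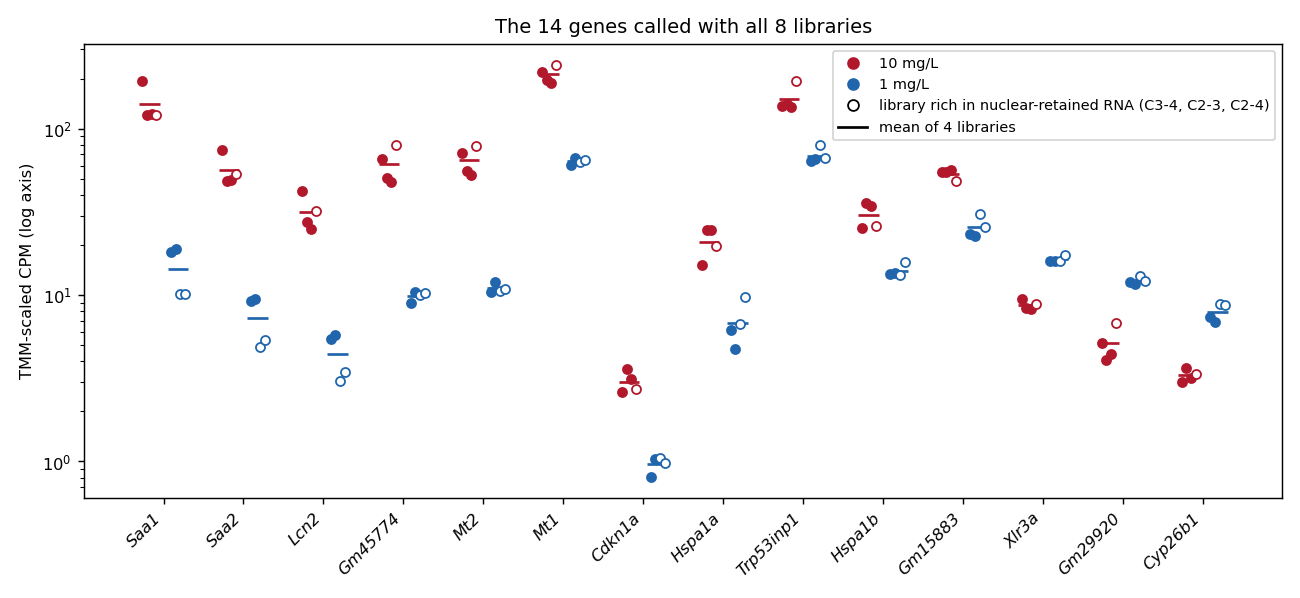
TMM-scaled CPM (log axis) of the 14 genes called with all 8 libraries, 10 mg/L in red on the left and 1 mg/L in blue on the right of each gene; points are libraries, open points those rich in nuclear-retained RNA, and bars the means of 4 libraries. The 2 colours do not overlap in any gene, and Saa1 spans 121 to 195 CPM at 10 mg/L, against 10.1 to 19.0 CPM at 1 mg/L.

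Serum amyloid A1 and A2, which Saa1 (chr7:46740497-46742980) and Saa2 (chr7:46751790-46754313) on GRCm38 encode, are secreted acute phase proteins carried on high density lipoprotein. Saa1 had 195, 121, 123 and 121 CPM in the 10 mg/L libraries, against 18.3, 19, 10.1 and 10.2 CPM in the 1 mg/L libraries. Saa2 had 74.2, 48.4, 49.1 and 53.7 CPM in the 10 mg/L libraries, against 9.26, 9.48, 4.88 and 5.33 CPM in the 1 mg/L libraries. Both genes stood several-fold above the 1 mg/L libraries in each 10 mg/L library, and C2-3 and C2-4 were the lowest. The log2 fold change with 8 libraries, given with its standard error throughout, was 3.27 ± 0.28 (adjusted p = 0.00149) for Saa1 and 2.94 ± 0.26 (adjusted p = 0.00149) for Saa2. With 5 libraries it was 2.98 ± 0.21 (adjusted p = 7.83e-05) for Saa1 and 2.62 ± 0.18 (adjusted p = 1.12e-05) for Saa2. The 2 genes are near-identical copies, so the split of reads between them is uncertain. Lcn2 (chr2:32384633-32388252) encodes lipocalin 2, a secreted protein that binds bacterial siderophores. It had 42.2, 27.5, 25 and 31.9 CPM in the 10 mg/L libraries, against 5.47, 5.74, 3.05 and 3.44 CPM in the 1 mg/L libraries. Each 10 mg/L library was several-fold above each 1 mg/L library, and the log2 fold change was 2.81 ± 0.25 (adjusted p = 0.00149) with 8 libraries.

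Metallothionein 2 is encoded by Mt2 (chr8:94172664-94173568) and metallothionein 1 by its neighbour Mt1 (chr8:94179082-94180327). Mt2 had 71.6, 55.5, 52.4 and 78.5 CPM in the 10 mg/L libraries, against 10.4, 12, 10.6 and 10.8 CPM in the 1 mg/L libraries. Mt1 had 220.5, 197, 189 and 243 CPM in the 10 mg/L libraries, against 60.6, 66.6, 62.8 and 65.1 CPM in the 1 mg/L libraries. In both genes the 4 libraries at 1 mg/L lay close together and the library rich in nuclear-retained RNA at 10 mg/L, C3-4, was the highest of all. Log2 fold changes were 2.56 ± 0.16 (adjusted p = 0.000308) for Mt2 and 1.74 ± 0.14 (adjusted p = 0.00123) for Mt1 with 8 libraries, and 2.42 ± 0.14 (adjusted p = 1.83e-07) and 1.67 ± 0.10 (adjusted p = 3.14e-07) in that order with 5. Gm45774, an antisense gene whose exons overlap Mt2, was named after its values were seen. Its counts were 90.7% to 101.8% of those of Mt2 at 10 mg/L, against 85.6% to 95.5% at 1 mg/L, and as the strand setting of the counting is not given, reads of the pair cannot be told apart.

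The promoters of these 5 genes are shown because the genes carry the largest differences. They run from 250 bases before to 50 after the gene start given by RefSeq on GRCm38.p6, 5′ to 3′ on the strand of the gene. Capitals mark, in Mt1 (chr8:94178839-94179138, plus strand) and Mt2 (chr8:94172368-94172667, plus strand), the core of the metal response element bound by the factor MTF1 (TGCACNC or TGCGCNC on either strand). In Saa1 (chr7:46742931-46743230, minus strand), Saa2 (chr7:46751583-46751882, plus strand) and Lcn2 (chr2:32387690-32387989, minus strand) they mark the C/EBP half-site pair TTGCNNAA, also searched on both strands.
Mt1: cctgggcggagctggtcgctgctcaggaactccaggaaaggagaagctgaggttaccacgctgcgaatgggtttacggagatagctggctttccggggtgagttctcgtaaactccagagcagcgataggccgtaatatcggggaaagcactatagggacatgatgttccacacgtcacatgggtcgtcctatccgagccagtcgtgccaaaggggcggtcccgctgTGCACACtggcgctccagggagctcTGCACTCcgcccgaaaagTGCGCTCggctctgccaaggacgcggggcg
Mt2: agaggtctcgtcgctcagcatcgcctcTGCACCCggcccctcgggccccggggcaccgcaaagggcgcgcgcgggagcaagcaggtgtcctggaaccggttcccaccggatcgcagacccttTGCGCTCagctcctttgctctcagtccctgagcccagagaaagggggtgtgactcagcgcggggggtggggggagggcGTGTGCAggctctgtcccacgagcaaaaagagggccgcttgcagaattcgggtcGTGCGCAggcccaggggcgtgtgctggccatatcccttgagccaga
Saa1: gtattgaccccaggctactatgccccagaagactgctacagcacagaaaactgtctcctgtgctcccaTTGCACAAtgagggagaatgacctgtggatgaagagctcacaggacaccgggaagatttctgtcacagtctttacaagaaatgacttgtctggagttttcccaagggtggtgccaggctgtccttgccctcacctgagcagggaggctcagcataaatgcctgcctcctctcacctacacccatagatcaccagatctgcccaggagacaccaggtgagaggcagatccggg
Saa2: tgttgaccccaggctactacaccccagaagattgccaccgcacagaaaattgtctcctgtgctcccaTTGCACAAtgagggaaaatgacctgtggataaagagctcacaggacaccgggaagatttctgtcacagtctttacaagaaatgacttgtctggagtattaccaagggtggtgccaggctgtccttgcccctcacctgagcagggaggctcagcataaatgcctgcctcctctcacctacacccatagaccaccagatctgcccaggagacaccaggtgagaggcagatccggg
Lcn2: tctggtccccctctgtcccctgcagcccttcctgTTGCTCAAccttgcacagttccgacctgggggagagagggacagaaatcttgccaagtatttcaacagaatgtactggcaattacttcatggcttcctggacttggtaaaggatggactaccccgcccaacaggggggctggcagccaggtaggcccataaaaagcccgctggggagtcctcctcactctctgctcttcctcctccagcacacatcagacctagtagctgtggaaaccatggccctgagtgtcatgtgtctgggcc
The metal response core occurred 3 times in the Mt1 window and 4 times in the Mt2 window, and at least once in 25.7% of 32851 mouse promoters of the same length. In Mt1 the first match began 23 bases before the gene start and the others after it. In Mt2 matches began 223, 128 and 50 bases before the gene start, and the last began after it. The C/EBP pair occurred 1 time in each of the other 3 windows and in 10.8% of promoters. The Saa1 and Saa2 windows were identical at 287 of 301 aligned positions (95.3%), against 49.4% for Mt1 and Mt2. These matches describe the letters of the windows; binding was not measured.

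Cdkn1a and Trp53inp1, known targets of the tumour suppressor p53, were also higher at 10 mg/L with all 8 libraries. They were the only calls among 19 measured p53 target and growth arrest genes, whose median log2 fold change was 0.06. Of that list 3 were above without overlap (background 3.27%) and 1 was below (background 2.42%). With 5 libraries 4 of 21 rose and 0 fell (background 7.93% and 6.13%). Cdkn1a encodes the cell cycle inhibitor p21 and had 2.6, 3.6, 3.12 and 2.72 CPM in the 10 mg/L libraries, against 0.802, 1.03, 1.05 and 0.983 CPM in the 1 mg/L libraries, a log2 fold change of 1.64 ± 0.21 (adjusted p = 0.0242). Trp53inp1 encodes a stress protein that takes part in autophagy and p53 signalling. It had 137, 140.4, 136 and 193 CPM in the 10 mg/L libraries, against 63.6, 65.9, 79.4 and 66.8 CPM in the 1 mg/L libraries, with 1.14 ± 0.17 (adjusted p = 0.0487) as its log2 fold change. Cdkn1a, whose exons overlap AC167363.2 on the opposite strand, was low in all libraries, and the excess of Trp53inp1 was greatest in C3-4. The stress-inducible Hsp70 genes Hspa1a and Hspa1b are near-identical copies (promoter windows 98.7% identical), so their reads may be shared between them. Exons of Hspa1a also overlap Gm20481 on the opposite strand. A heat shock element pattern was searched in both promoter windows and occurred 0 times in each. That pattern occurred at least once in only 0.603% of 32851 mouse promoters, so most promoters lack it. Hspa1a had 15.2, 24.7, 24.5 and 19.6 CPM in the 10 mg/L libraries, against 6.17, 4.74, 6.66 and 9.69 CPM in the 1 mg/L libraries, and Hspa1b had 25.2, 35.9, 34.4 and 26.1 CPM in the 10 mg/L libraries, against 13.4, 13.6, 13.3 and 15.9 CPM in the 1 mg/L libraries. Log2 fold changes were 1.64 ± 0.24 (adjusted p = 0.0487) for Hspa1a and 1.12 ± 0.15 (adjusted p = 0.0358) for Hspa1b.

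Cyp26b1, which encodes an enzyme that breaks down retinoic acid, fell to 3.01, 3.65, 3.17 and 3.34 CPM at 10 mg/L, against 7.39, 6.88, 8.82 and 8.77 CPM at 1 mg/L. The log2 fold change was -1.27 ± 0.16 (adjusted p = 0.0203) with 8 libraries and -1.13 ± 0.17 (adjusted p = 0.000807) with 5. Xlr3a, an X-linked gene with near-identical copies beside it, had 9.41, 8.42, 8.25 and 8.83 CPM in the 10 mg/L libraries, against 16.1, 16.1, 15.9 and 17.4 CPM in the 1 mg/L libraries, and its log2 fold change was -0.91 ± 0.11 (adjusted p = 0.0218). Both genes were narrow within groups. Gm29920, a processed pseudogene, and Gm15883, an antisense gene over Cyp2f2 exons, were named after their values were seen. Gm29920 had 5.18, 4.09, 4.43 and 6.82 CPM at 10 mg/L, against 11.9, 11.6, 13.1 and 12.2 CPM at 1 mg/L. Gm15883 had 55.2, 55.1, 56.2 and 48.2 CPM at 10 mg/L, against 23.3, 22.6, 30.6 and 25.7 CPM at 1 mg/L.

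Without C3-4, C2-3 and C2-4 the spread between libraries of a group was smaller, with a biological coefficient of variation of 0.0996 in place of 0.241, and 2545 of 18098 genes were called. Of these 1435 (7.93%) were higher at 10 mg/L and 1110 (6.13%) lower, and 225 (1.24%) and 53 (0.293%) of them differed at least 2-fold. Protein-coding genes made up 1143 of the higher and 872 of the lower calls. The sign was the same with 8 libraries for 2419 of the 2527 that could be tested there. Only 448 had no overlap between groups over the 8 libraries in the same direction, and C3-4 lay on the same side of both C2-3 and C2-4 in 1267. The count depends on single libraries: it was 5431 without C3-1, 1445 without C3-2, 648 without C3-3, 929 without C2-1 and 271 without C2-2. C3-1 was the 10 mg/L library nearest to the mean of C2-1 and C2-2 in 1965 of the 2545 genes (77.2%). Of 142 calls on genes named by rule or called with all 8 libraries, 53 held whichever of the 5 libraries was left out and 89 ended without at least 1.

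**Figure D2:**
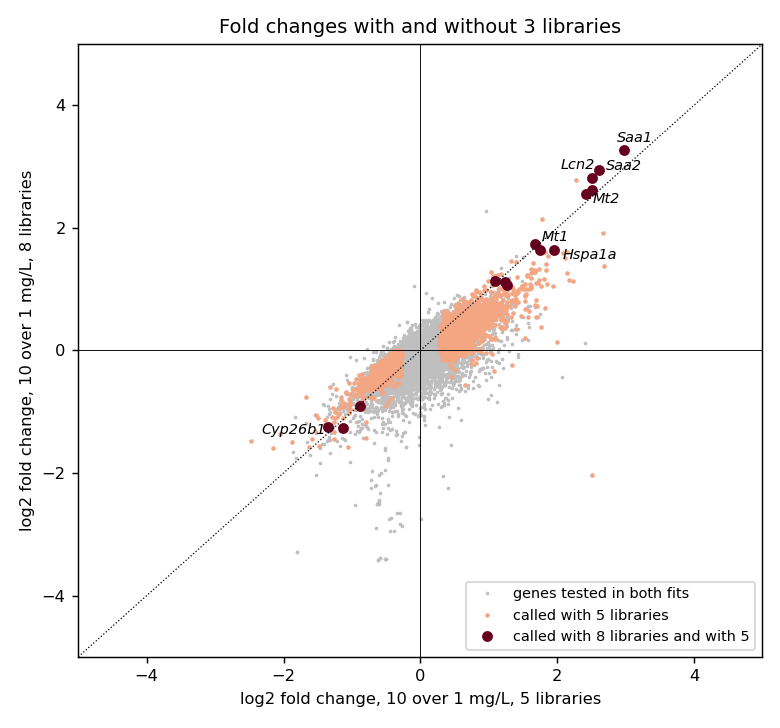
Log2 fold change of 10 over 1 mg/L with 5 libraries (horizontal) and with 8 (vertical), each point a gene; orange points are called with 5 libraries, dark points with both sets, and the dotted line is equality. The 14 genes called with 8 libraries lie near the line; of 40 genes below a log2 fold change of -2 on the vertical axis, 34 are small RNA classes, their median was 1.26 to 5.69 CPM at 10 mg/L, against 0.975 to 62.2 CPM at 1 mg/L with the highest value in C2-4, and none was called with 8 libraries.

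GC content and length moved with the calls of the 5 libraries. The longest annotated transcript had a median GC content of 54.6% among genes higher at 10 mg/L, 47.6% among those lower and 49.2% among all tested, and median lengths were 2715, 1785 and 2803 bases in the same order. The share called higher was 0.736% of genes with under 40% GC and 21.2% of those with 60% or more, while the share called lower was 6.55% and 0.972%. The part of base composition, length and depth in the fold changes was not tested beyond an offset for GC content and length, fitted after seeing the data. That offset gave 2573 calls, 1969 of them shared with the 2545. The 14 genes called with 8 libraries were all called with 5 libraries under that offset, and 13 of them were called with 8.

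**Figure D3:**
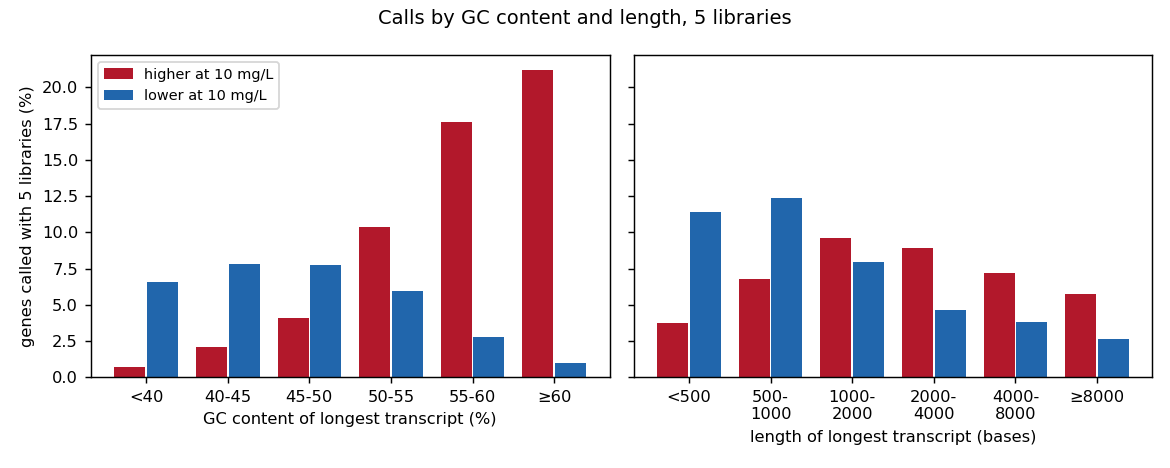
Share of genes (%) called higher (red, left bar) or lower (blue, right bar) at 10 mg/L with 5 libraries, by GC content and by length in bases of the longest transcript. The share called higher grows from 0.736% to 21.2% over the GC classes, and the share called lower is greatest, 12.4%, among transcripts of 500 to 1000 bases.

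Beyond the 5 genes above, the acute phase list gave smaller differences. Of its 29 measured members, those 5 genes included, 13 rose and 1 fell with 5 libraries (background 7.93% and 6.13%). The median log2 fold change was 0.35, against 0.00 over all genes tested. With all 8 libraries only those 5 genes rose and 0 fell. They are also among the 11 members with each 10 mg/L library above each 1 mg/L library (background 3.27%). The median log2 level of the members, relative to each gene's mean over the 8 libraries, was 0.49, 0.28, 0.23 and 0.11 at 10 mg/L, against 0.10, 0.10, -0.69 and -0.54 at 1 mg/L. C3-4 was thus close to C2-1 and C2-2, and C2-3 and C2-4 were the lowest. Saa3, the serum amyloid gene known mainly from macrophages and fat in mice, was low throughout, with 5.52, 4.72, 4.38 and 3.57 CPM at 10 mg/L, against 2.5, 2.27, 1.22 and 1.26 CPM at 1 mg/L, a log2 fold change of 1.04 ± 0.19 (adjusted p = 0.00352) with 5 libraries. Stat3, the transcription factor downstream of interleukin-6, had 53.1, 60.5, 53.5 and 62.5 CPM at 10 mg/L, against 38.6, 37.2, 49.2 and 50.3 CPM at 1 mg/L, and 0.55 ± 0.09 (adjusted p = 0.0019) with 5 libraries. The member that fell was Hamp, encoding the iron hormone hepcidin, with 2513, 2252, 2133 and 2073 CPM at 10 mg/L, against 3228, 3407, 1934 and 1998 CPM at 1 mg/L. Its order was not kept in the libraries rich in nuclear-retained RNA, and its call of -0.53 ± 0.11 (adjusted p = 0.00547) ended without C3-3 or C2-2. Lrg1, encoding a secreted leucine-rich glycoprotein of the acute phase, is not on the list and had 65.8, 112, 91 and 82.6 CPM at 10 mg/L, against 34, 32.7, 51.9 and 61.8 CPM at 1 mg/L, with 1.42 ± 0.19 (adjusted p = 0.00154) for 5 libraries. Leaving out 1 of the 5 libraries gave 5 to 15 rises and 0 to 5 falls for the list, with the fewest calls without C2-2.

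Complement and antigen presentation genes differed in both directions between 10 and 1 mg/L. Of 35 complement and coagulation genes 12 rose and 5 fell with 5 libraries (background 7.93% and 6.13%), with a median log2 fold change of 0.06, and 5 were above without overlap over 8 (background 3.27%). Complement C4b had 611, 803, 739 and 740.5 CPM at 10 mg/L, against 393, 376, 571 and 527 CPM at 1 mg/L, and C1ra, a protease that starts the classical pathway, had 152, 196, 171 and 111 CPM at 10 mg/L, against 95.1, 92, 90.6 and 98.9 CPM at 1 mg/L. Log2 fold changes with 5 libraries were 0.90 ± 0.12 (adjusted p = 0.000362) for C4b and 0.89 ± 0.11 (adjusted p = 0.000194) for C1ra. Complement C3, the central component, had 2922, 4010.2, 3503 and 2479 CPM at 10 mg/L, against 2059, 2044, 1832 and 2013 CPM at 1 mg/L, with 0.76 ± 0.13 (adjusted p = 0.00175), a call that ended without C2-2. Mir6978, a miRNA precursor gene lying within complement C3, had 27.9, 45.6, 35.5 and 28.1 CPM at 10 mg/L, against 9.7, 7.37, 15.5 and 13.3 CPM at 1 mg/L, with 2.08 ± 0.20 (adjusted p = 0.000133). Reads of the host transcript can enter its count. Against the same background, 8 of 20 antigen presentation genes rose and 1 fell, with 5 above without overlap. H2-Q4 had a log2 fold change of 0.74 and the peptide transporters Tap1 and Tap2 0.61 each, while B2m, the shared light chain of class I molecules, had -0.39. Among 30 type I interferon response genes 3 rose and 1 fell, near the background. Leaving out 1 library gave 3 to 12 rises and 0 to 10 falls in the complement list, and 0 to 11 rises and 0 to 3 falls in the antigen presentation list. The fewest calls came without C2-2 in both and the most without C3-1, with 12 rises and 10 falls for complement.

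Genes known to respond to glucocorticoids had the highest share of rises among lists with at least 9 measured members. The lists were chosen with earlier results of these data known, so this rank describes them and is not a test. Of 20 measured, 14 rose and 0 fell with 5 libraries (background 7.93%), the median log2 fold change was 0.67, and 11 were above without overlap over 8 libraries. With all 8 libraries 4 rose, namely Lcn2, Mt1, Mt2 and Cdkn1a, which are described above, and DESeq2 called 9. The list shares members with the acute phase, gluconeogenesis and immediate early lists. Igfbp1, encoding a secreted protein that binds insulin-like growth factors, had 168, 192, 179 and 238 CPM in the 10 mg/L libraries, against 61.9, 60.3, 108 and 101 CPM in the 1 mg/L libraries. The mTOR inhibitor gene Ddit4 had 4.89, 7.78, 5.28 and 7.36 CPM at 10 mg/L, against 2.21, 1.65, 3.33 and 3.09 CPM at 1 mg/L. In both genes the 4 libraries at 10 mg/L were above those at 1 mg/L, which was a condition for naming them. C2-3 and C2-4 were above C2-1 and C2-2. Log2 fold changes were 1.55 ± 0.10 (adjusted p = 3.14e-07) for Igfbp1 and 1.61 ± 0.24 (adjusted p = 0.000801) for Ddit4 with 5 libraries, against 1.23 and 1.33 with 8, where neither was called. Errfi1, an inhibitor of the epidermal growth factor receptor, had 954, 1014, 975 and 1176 CPM at 10 mg/L, against 531, 516, 793 and 720.4 CPM at 1 mg/L. Tsc22d3, which encodes the glucocorticoid-induced leucine zipper protein, had 73.7, 78.2, 70.5 and 82.8 CPM at 10 mg/L, against 50.7, 54.5, 54.1 and 57.2 CPM at 1 mg/L. Fkbp5, another gene known to respond to glucocorticoids, had 29, 31.5, 30.5 and 31.4 CPM at 10 mg/L, against 31.2, 30.8, 35.5 and 33.1 CPM at 1 mg/L, and its log2 fold change with 5 libraries was -0.03 ± 0.09 (adjusted p = 0.854). Errfi1, Tsc22d3 and Fkbp5 were picked after their values were seen. The list gave 9 to 16 rises and 0 falls when 1 of the 5 libraries was left out, 9 without C2-2.

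Adcy1, encoding an adenylate cyclase, also rose with 5 libraries. Adcy1 had 2.32, 2.87, 2.62 and 2.63 CPM at 10 mg/L, against 0.996, 0.623, 1.78 and 0.983 CPM at 1 mg/L, with 1.66 ± 0.28 (adjusted p = 0.00176), a call that ended without C2-2. Its level was low in every library.

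Most immediate early genes on the list rose with 5 libraries and did not separate the groups with 8. Of 24 measured, 15 rose and 0 fell (background 7.93% and 6.13%) with a median log2 fold change of 0.69, yet 0 were called with 8 libraries and 1, Fos, had no overlap. Fos had 52, 71.7, 63.3 and 79.2 CPM in the 10 mg/L libraries, against 27.8, 20.4, 51.4 and 42 CPM in the 1 mg/L libraries, and 1.37 ± 0.14 (adjusted p = 6.96e-05) with 5 libraries. Junb had 84.4, 102, 91.9 and 102 CPM at 10 mg/L, against 45.1, 36.6, 95.8 and 75.7 CPM at 1 mg/L. Btg2, an antiproliferative gene, had 96.5, 132, 122 and 147 CPM at 10 mg/L, against 52.2, 41, 104 and 86.2 CPM at 1 mg/L. C2-3 and C2-4 lay well above C2-1 and C2-2 in all 3 genes, near or within the range of the 10 mg/L libraries. Gadd45g, a growth arrest gene, had 54, 84.1, 70.6 and 106 CPM at 10 mg/L, against 23, 17.9, 63.8 and 48.4 CPM at 1 mg/L, with 1.76 ± 0.17 (adjusted p = 0.000169) for 5 libraries and 1.04 for 8. A term for the class of library (rich or not in nuclear-retained RNA) in the fit of 8 gave 11 rises and 0 falls. Leaving out 1 of the 5 libraries gave 6 to 15 rises, 6 without C2-2. Of 22 ATF4 response genes 5 rose and 0 fell. Chac1, encoding a glutathione-degrading enzyme, was the member with the largest value, at 1.69, 1.7, 1.56 and 2.27 CPM at 10 mg/L, against 0.267, 0.244, 0.943 and 0.632 CPM at 1 mg/L, with 2.67 ± 0.36 (adjusted p = 0.000447). Cebpb, a transcription factor of the acute phase and of gluconeogenesis, had 55.1, 83, 71.7 and 89.9 CPM at 10 mg/L, against 32.2, 25.6, 62.9 and 52.1 CPM at 1 mg/L, with 1.27 ± 0.15 (adjusted p = 0.000339).

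**Figure D4:**
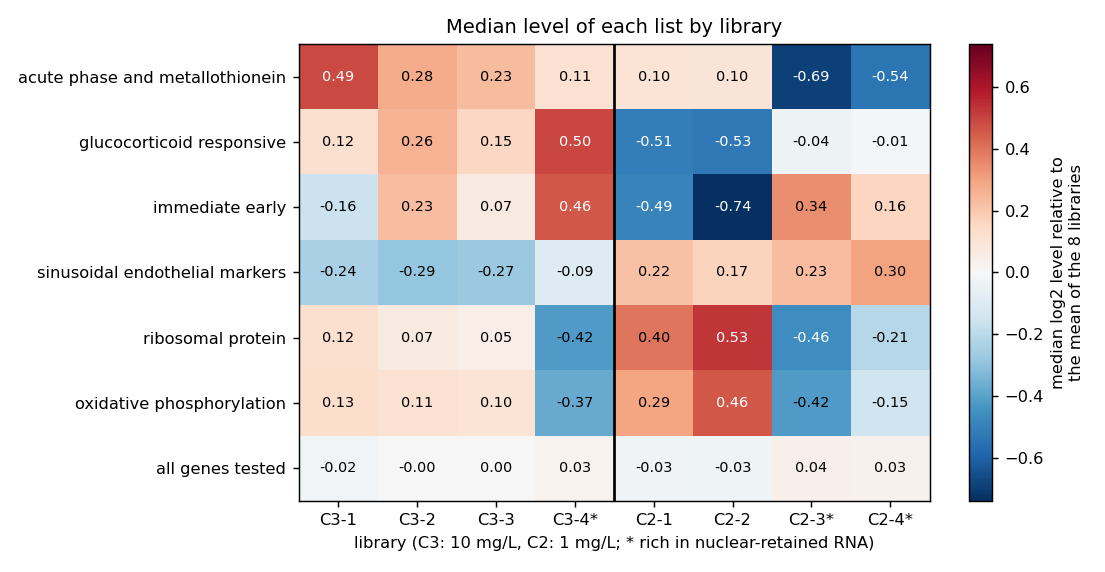
Median level of 6 gene lists and of all genes tested in each library, as log2(CPM + 0.5) relative to each gene's mean over the 8 libraries; columns are libraries, 10 mg/L left of the line and 1 mg/L right of it, and stars mark those rich in nuclear-retained RNA. The endothelial marker row is -0.09 or lower in each 10 mg/L library and 0.17 or higher in each 1 mg/L library. C2-3 and C2-4 stand on the other side of 0 from C2-1 and C2-2 in the acute phase, immediate early, ribosomal protein and oxidative phosphorylation rows.

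Circadian clock genes differed in both directions, with 5 of 20 higher and 3 lower with 5 libraries (background 7.93% and 6.13%). Per1, a repressor of the clock that also responds to glucocorticoids, had 34.3, 41.1, 41.2 and 65.9 CPM at 10 mg/L, against 17.6, 15.3, 30.3 and 31 CPM at 1 mg/L, with 1.23 ± 0.11 (adjusted p = 2.03e-05). Arntl, which encodes the activator BMAL1, had 4.39, 5.25, 4.43 and 6.33 CPM at 10 mg/L, against 2.31, 1.79, 3.88 and 2.39 CPM at 1 mg/L, with 1.19 ± 0.21 (adjusted p = 0.00206), a call that ended without C2-2. Nr1d1, a repressor of Arntl, had 21.8, 37.4, 33.6 and 45.1 CPM at 10 mg/L, against 17.3, 15.1, 41 and 36.6 CPM at 1 mg/L, so that C2-3 and C2-4 were within the range at 10 mg/L. Npas2, a partner of the clock that can replace CLOCK, was under 1 CPM in every library, and its call of 3.12 ± 0.71 (adjusted p = 0.00992) ended without C3-3, C2-1 or C2-2. Leaving out 1 library gave 1 to 6 rises and 0 to 4 falls, with the fewest calls without C2-2.

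Amino acid breakdown and urea cycle genes gave 11 rises and 0 falls among 38 measured with 5 libraries (background 7.93% and 6.13%), a median log2 fold change of 0.16, and 6 above without overlap over 8 (background 3.27%). Sds, encoding serine dehydratase, had 157, 171, 168 and 201 CPM at 10 mg/L, against 97.7, 102, 142 and 144 CPM at 1 mg/L, with 0.72 ± 0.09 (adjusted p = 0.000251). Got1, an aspartate aminotransferase, had 133, 157, 141 and 169 CPM at 10 mg/L, against 93.4, 95.5, 103 and 110.4 CPM at 1 mg/L, with 0.60 ± 0.10 (adjusted p = 0.00129). Leaving out 1 library gave 4 to 20 rises and 0 to 5 falls, with 4 calls in all without C2-2 and both the 20 rises and the 5 falls without C3-1. In glucose and glycogen metabolism 7 of 29 rose and 3 fell. The gluconeogenic Fbp1 had 362, 483, 437 and 335 CPM at 10 mg/L, against 246, 251, 276 and 305 CPM at 1 mg/L, with 0.78 ± 0.12 (adjusted p = 0.000918). Pck1, the other gluconeogenic control enzyme named, had 1402, 1608, 1475 and 2189 CPM at 10 mg/L, against 955, 813, 1836 and 1631 CPM at 1 mg/L, and its call ended without C2-2. In the insulin, growth hormone and IGF list 6 of 20 rose and 1 fell, and Igfals, a carrier of IGF1, had a log2 fold change of 0.65. Leaving out C2-2 left 2 rises in each of the glucose and insulin lists.

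Among bile acid genes Cyp7a1 RNA was higher at 10 mg/L with 5 libraries, and none of the list was called with 8. Cyp7a1, the rate-limiting enzyme of bile acid synthesis, had 264, 223, 242 and 225 CPM in the 10 mg/L libraries, against 137, 139, 109 and 111 CPM in the 1 mg/L libraries. All libraries at 10 mg/L were above those at 1 mg/L, and the log2 fold change was 0.95 ± 0.15 (adjusted p = 0.0889) with 8 libraries and 0.82 ± 0.10 (adjusted p = 0.000173) with 5. Cyp8b1, which makes cholic acid, had 109, 95.5, 109 and 69.6 CPM at 10 mg/L, against 65.6, 71.3, 61.5 and 56.9 CPM at 1 mg/L, with 0.61 ± 0.09 (adjusted p = 0.00115) for 5 libraries. In the list 7 of 23 rose and 3 fell with 5 libraries (background 7.93% and 6.13%), and 1 was above without overlap over 8 (background 3.27%). Of 25 cholesterol synthesis genes 4 rose and 1 fell, with 6 above without overlap, among them Dhcr7, a late enzyme of the pathway, with 62, 65.1, 65.2 and 55.9 CPM at 10 mg/L, against 48.1, 49, 48.4 and 47.4 CPM at 1 mg/L. The Dhcr7 call, 0.40 ± 0.09 (adjusted p = 0.00785), ended without C3-3, C2-1 or C2-2. Of 27 fatty acid and triglyceride synthesis genes 8 rose and 0 fell, against 8 and 3 under the GC and length offset. Fads2, a desaturase of polyunsaturated fatty acids, had 105, 144, 126 and 96.7 CPM at 10 mg/L, against 71.6, 60.8, 77.6 and 80.2 CPM at 1 mg/L, with 0.92 ± 0.12 (adjusted p = 0.000426). Leaving out 1 library gave 3 to 9 rises and 0 to 7 falls for bile acid genes, 0 to 12 rises and 0 to 4 falls for cholesterol genes, and 3 to 16 rises and 0 to 3 falls for fatty acid synthesis genes, with the fewest calls without C2-2 in each, and as few without C3-3 for cholesterol and fatty acid genes.

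Of 25 measured targets of PPARα, the nuclear receptor that raises fatty acid oxidation in liver, 1 rose and 8 fell at 10 mg/L with 5 libraries (background 7.93% and 6.13%), with a median log2 fold change of -0.06, and 2 were below without overlap over 8 (background 2.42%). Fabp1, the liver fatty acid binding protein, had 2800.3, 2388, 2284 and 1872 CPM at 10 mg/L, against 4021, 4169, 2104 and 2125 CPM at 1 mg/L, with -0.72 ± 0.11 (adjusted p = 0.00116). Cyp4a14, a fatty acid hydroxylase, had 43.6, 34.4, 29.4 and 21.3 CPM at 10 mg/L, against 53.6, 55.3, 27.2 and 27.9 CPM at 1 mg/L, with -0.60 ± 0.13 (adjusted p = 0.00687), a call that ended without C3-3 or C2-2. In both genes C2-3 and C2-4 were at the level of the 10 mg/L libraries or below. The PPARα list gave 0 to 2 rises and 1 to 9 falls with 1 library left out, the fewest calls without C2-2. Of 23 β-oxidation genes 1 rose and 6 fell, of 9 ketone body genes 3 rose and 1 fell, and of 22 glycerophospholipid, choline and one-carbon genes 6 rose and 1 fell.

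Of 32 xenobiotic cytochrome P450 and related genes 4 rose and 8 fell with 5 libraries (background 7.93% and 6.13%). Alas1, the first enzyme of heme synthesis, had 516, 583, 579 and 707 CPM at 10 mg/L, against 287, 249, 462 and 439.6 CPM at 1 mg/L, with 1.06 ± 0.11 (adjusted p = 3.48e-05). Cyp2e1, which oxidises ethanol, had 2936, 2799, 2652 and 2111 CPM at 10 mg/L, against 4478, 4309, 2236 and 2567 CPM at 1 mg/L, with -0.65 ± 0.10 (adjusted p = 0.00125). The P450 families hold near-identical copies whose reads may be split. Of 30 conjugation and NRF2 genes 1 rose and 3 fell, and of 23 iron and heme genes 6 rose and 4 fell. In 21 female-biased genes 0 rose and 7 fell, and in 17 male-biased genes 4 rose and 1 fell. Selenbp2, of the male-biased list, had 72, 67.7, 76.5 and 44.9 CPM at 10 mg/L, against 43.3, 42.6, 46.2 and 44.2 CPM at 1 mg/L, with 0.75 ± 0.09 (adjusted p = 0.000195). Pericentral genes gave 3 rises and 5 falls of 23, and periportal genes 7 and 3 of 20. Leaving out 1 library gave 1 to 17 falls in each of the P450 and female-biased lists, 17 without C3-1 and 1 without C3-3 or C2-2, and 1 to 8 rises in the P450 list.

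**Figure D5:**
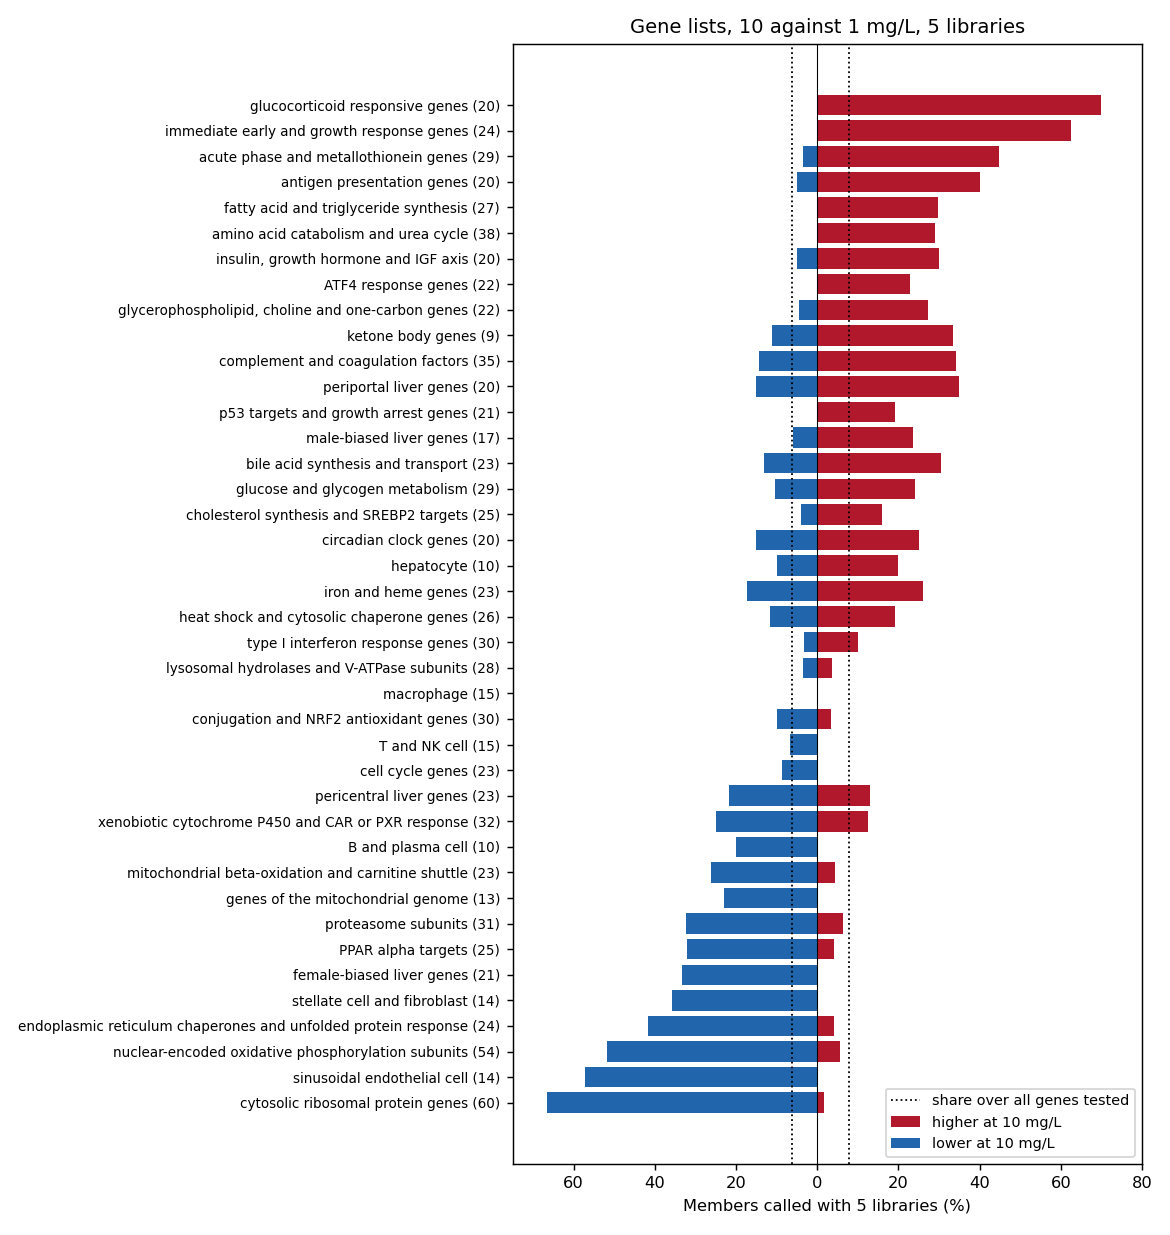
Share of the measured members (number in brackets) of each list with at least 9 members measured that were called higher (red, to the right) or lower (blue, to the left) at 10 mg/L with 5 libraries; dotted lines mark the share over all genes tested, 7.93% and 6.13%. Glucocorticoid responsive and immediate early genes stand at the top, with 14 of 20 and 15 of 24 higher, and ribosomal protein genes at the bottom, with 40 of 60 lower.

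With 5 libraries falls were frequent among genes of ribosomes and the respiratory chain. Of 60 ribosomal protein genes 1 rose and 40 fell (median log2 fold change -0.41), and of 54 oxidative phosphorylation subunits 3 rose and 28 fell (median -0.30), against a background of 7.93% and 6.13%. None of either list was called with 8 libraries, where DESeq2 also called 0 and the medians were -0.15 and -0.11. Rps12, a protein of the small ribosomal subunit, had 143, 134, 134 and 96 CPM in the 10 mg/L libraries, against 206, 234, 104 and 129 CPM in the 1 mg/L libraries, with -0.68 ± 0.09 (adjusted p = 0.000447). Uqcrh, a subunit of complex III, had 131, 97.1, 105 and 78.7 CPM at 10 mg/L, against 170.0, 188, 72.7 and 87.9 CPM at 1 mg/L, with -0.69 ± 0.11 (adjusted p = 0.00166), a call that ended without C2-2. In both genes C2-1 and C2-2 were the highest of the 8 libraries, and C2-3 and C2-4 lay below the 10 mg/L libraries C3-1 to C3-3. The lists hold short transcripts, with median lengths of 1124 and 1232 bases. Under the GC and length offset 44 ribosomal protein genes and 26 oxidative phosphorylation subunits fell. The falls in ribosomal protein genes numbered 1 without C2-2, 9 without C3-3, 25 without C2-1, 30 without C3-2 and 45 without C3-1, and in oxidative phosphorylation subunits 1, 8, 20, 21 and 30 in the same order, while rises were 0 to 8 and 0 to 12. Of 31 proteasome subunits 2 rose and 10 fell, of 13 genes of the mitochondrial genome 0 rose and 3 fell, and of 24 endoplasmic reticulum chaperone genes 1 rose and 10 fell. These counts also depended on single libraries. Without C3-1, C3-2 and C3-3 in turn, 15, 4 and 2 proteasome subunits fell. In the same order 12, 0 and 0 genes of the mitochondrial genome and 12, 5 and 3 chaperone genes fell, with at most 3 rises in any list. Herpud1, which takes part in degradation at the endoplasmic reticulum, was the member that rose, at 252, 292, 278 and 300.0 CPM at 10 mg/L, against 172, 175, 240.4 and 219 CPM at 1 mg/L, while Manf, a secreted stress factor, had 98.2, 86.6, 90.3 and 59.4 CPM at 10 mg/L, against 128, 141, 69.7 and 85.9 CPM at 1 mg/L. Among 26 heat shock and cytosolic chaperone genes 5 rose and 3 fell, with Hsp90aa1 at -0.69 and Hsp90ab1 at 0.73 as log2 fold changes with 5 libraries. Hsp90aa1 was picked after its values were seen, and the Hsp90ab1 call ended without C3-3 or C2-2.

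Of 14 markers of liver sinusoidal endothelial cells, the fenestrated cells that line the liver's capillaries, 0 rose and 8 fell at 10 mg/L with 5 libraries (background 6.13%), with a median log2 fold change of -0.49. Over all 8 libraries 8 of the 14 were below without overlap (background 2.42%), the median was -0.44, edgeR called 0 and DESeq2 called 5. The summed CPM of the list was 272, 271, 271 and 327 at 10 mg/L, against 351, 359, 419 and 416 at 1 mg/L. In a bulk extract, fewer cells of a type and less RNA per cell cannot be told apart. Clec4g, a lectin of these cells, had 34.1, 29.6, 28 and 30.6 CPM in the 10 mg/L libraries, against 50.3, 49.1, 41.3 and 37.6 CPM in the 1 mg/L libraries. Bmp2, which they secrete and which induces hepcidin in hepatocytes, had 11.1, 10.4, 10.6 and 10.9 CPM at 10 mg/L, against 14.9, 17, 15.9 and 14.5 CPM at 1 mg/L. Kdr, the VEGF receptor 2, had 21.4, 19.9, 20.5 and 22.7 CPM at 10 mg/L, against 29.3, 28.2, 27.4 and 31.2 CPM at 1 mg/L. In each of the 3 the highest 10 mg/L library was below the lowest 1 mg/L library. With 5 libraries the log2 fold changes were -0.70 ± 0.10 (adjusted p = 0.000662) for Clec4g, -0.57 ± 0.12 (adjusted p = 0.00626) for Bmp2 and -0.48 ± 0.10 (adjusted p = 0.00543) for Kdr. Stab2, a scavenger receptor of the same cells, had 27.1, 28.6, 26.1 and 41.8 CPM at 10 mg/L, against 29.5, 31.1, 51.6 and 52 CPM at 1 mg/L, and was not called. These marker genes were picked after their values were seen. With 1 of the 5 libraries left out, 7 fell without C3-1 or C3-2, 5 without C3-3 or C2-1 and 1 without C2-2.

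Lepr, Timp3 and Cyyr1 were further large falls with 5 libraries. Lepr, the leptin receptor, had 4.55, 3.6, 3.07 and 3.26 CPM at 10 mg/L, against 9.55, 8.48, 5.11 and 7.86 CPM at 1 mg/L, with -1.25 ± 0.17 (adjusted p = 0.000523). Timp3, an inhibitor of matrix proteases that lies within Syn3 on the opposite strand, had 14.3, 11.5, 13.6 and 13.5 CPM at 10 mg/L, against 25.6, 23, 16.8 and 17.4 CPM at 1 mg/L, with -0.88 ± 0.12 (adjusted p = 0.000409). Cyyr1 had 5.8, 4.04, 5.13 and 5.66 CPM at 10 mg/L, against 9.84, 12.2, 6.94 and 10.3 CPM at 1 mg/L, with -1.12 ± 0.16 (adjusted p = 0.000803). No 10 mg/L library overlapped a 1 mg/L library in these 3 genes, which was a condition for naming them (background 2.42%). Mef2c, Myct1 and Adgrl4, known from endothelial cells, had log2 fold changes of -1.13, -1.03 and -0.84. The Mef2c call ended without C2-1 or C2-2, that of Myct1 without C2-2 and that of Adgrl4 without C2-1. Of 14 stellate cell and fibroblast markers 0 rose and 5 fell with 5 libraries (background 7.93% and 6.13%). None was below without overlap over 8 libraries (background 2.42%). Falls in this list numbered 2 to 7 with 1 of the 5 libraries left out, 2 without C2-2. Dcn, encoding the matrix protein decorin, had 102, 85.2, 82.8 and 71.5 CPM at 10 mg/L, against 136, 149, 72.9 and 91 CPM at 1 mg/L; C2-3 and C2-4 were within the 10 mg/L range. The summed CPM of that list was 238 to 263 at 10 mg/L, against 237 to 366 at 1 mg/L.

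Genes of B cells were few in counts. Of 10 B and plasma cell markers 0 rose and 2 fell with 5 libraries (background 7.93% and 6.13%), 0 to 3 fell with 1 of the 5 left out (0 without C3-3 or C2-2), edgeR called 0 and DESeq2 1 with 8, and 5 were below without overlap over 8 (background 2.42%). The summed CPM was 20.5, 17.5, 18.4 and 20.9 at 10 mg/L, against 26.3, 28.9, 26.9 and 32.6 at 1 mg/L. Ighd, the heavy chain constant gene of IgD, had 2.07, 1.85, 1.56 and 2.68 CPM at 10 mg/L, against 2.84, 3.87, 5.27 and 4 CPM at 1 mg/L, with -0.86 ± 0.23 (adjusted p = 0.0225), a call that ended without C3-2, C3-3 or C2-2. Of 15 macrophage markers 0 rose and 0 fell with 5 libraries, where Clec4f, a marker of Kupffer cells, had 119, 98.6, 112 and 91 CPM at 10 mg/L, against 108, 114, 84.9 and 86 CPM at 1 mg/L. In 15 T and NK cell markers 0 rose and 1 fell. Hepatocyte markers gave 2 rises and 1 fall of 10. Lcn2 is also made by neutrophils, whose marker genes summed to 2.26 to 4.50 CPM at 10 mg/L, against 2.18 to 2.73 CPM at 1 mg/L, and 2 of 8 passed the filter on low counts. Their part in the Lcn2 difference was not tested. Exocrine pancreas markers summed to 13.1 to 20.4 CPM at 10 mg/L, against 12.2 to 25.2 CPM at 1 mg/L, with Cel, Cela3b, Prss2, Try4 and Try5 at 0 in all 8 libraries.

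Among the remaining large falls with 5 libraries, Hsd3b1, which converts steroid precursors and belongs to a family of near-identical copies, had 5.84, 5.35, 5.08 and 4.37 CPM at 10 mg/L, against 11.5, 14.4, 7.27 and 7.93 CPM at 1 mg/L, with -1.25 ± 0.15 (adjusted p = 0.000138). Ube2d2b, a ubiquitin-conjugating enzyme gene with close copies, had 0.722, 0.876, 1.16 and 0.981 CPM at 10 mg/L, against 2.55, 2.49, 3.39 and 2.6 CPM at 1 mg/L. Its log2 fold change was -1.56 ± 0.23 (adjusted p = 0.0503) with 8 libraries and -1.49 ± 0.27 (adjusted p = 0.00258) with 5. Dpysl2 had 4.96, 3.26, 4.33 and 5.66 CPM at 10 mg/L, against 8.99, 9.83, 6.83 and 8.28 CPM at 1 mg/L, with -1.15 ± 0.17 (adjusted p = 0.000835), and Pam, which amidates peptide hormones, had 10.4, 7.54, 9.41 and 8.92 CPM at 10 mg/L, against 16.4, 17.5, 11 and 11.9 CPM at 1 mg/L, with -0.88 ± 0.14 (adjusted p = 0.00104). Exons of Pam overlap those of another gene on the same strand. Cryab and Ldhb were low, at -1.04 and -0.96 on the log2 scale, and both calls ended without C3-3, C2-1 or C2-2. Of 23 cell cycle genes 0 rose and 2 fell, and of 28 lysosomal genes 1 rose and 1 fell (background 7.93% and 6.13%).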

How the data were processed

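The deposited table holds the authors' unnormalised counts of reads for 53372 Ensembl identifiers. Per the labels' protocols, poly(A) RNA was taken from 1 µg of total RNA and libraries were made with a directional kit. The submitters' processing notes name the genome build GRCm38 and the programs STAR 2.5.2b, FastQC 0.11.5 and bcl2fastq 2.19.1.403. The sources used here do not give the counting program, its strand setting or the annotation release, so that reads of close copies and of antisense or overlapping genes are uncertain. Chi-square per degree of freedom between libraries of a group was 6.08 or more, and each was counted as 1 library.

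The concentration was the only term of the main model, an edgeR 4.0.16 quasi-likelihood fit (robust glmQLFit, then glmQLFTest) run in R 4.3.3 after filterByExpr and TMM scaling. The fit of 8 libraries tested 16581 genes with 6 residual degrees of freedom, and that of 5 tested 18098 with 3. CPM values use the TMM factors of the 8-library fit throughout. DESeq2 1.42.0 and limma 3.58.1 (voom) were alternatives. Annotation was taken from GENCODE M21 (GRCm38), where 53267 identifiers were found.

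Members and the 35 pathway and 14 marker lists were chosen with earlier results of these data known. Genes named by rule were, per direction, up to 15 called in both fits without overlap and with at least 2 CPM, in order of fold change, filled up from the 5-library fit. To these came up to 4 called members of each pathway list and 5 genes that check the libraries. A few of the genes so chosen were left out of the text.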

Additional observations from a re-analysis of the deposited data

Results flagged for a closer look

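Among 286 groups of 4 libraries, formed by 143 genes named or checked in 2 groups each, 13 held a library far from the other 3. This is no more than the rate of about 1 in 20 that chance gives. C3-4 was that library in 9 of the 13. Malat1, Xist and Neat1 belong to the index by which C3-4 was set apart, so their flags restate that choice; without them C3-4 was that library in 6 of 10. At 10 mg/L it lay above the other 3 libraries for Malat1 (3785 CPM), Xist (1879.7 CPM), Neat1 (1783 CPM), Trp53inp1 (193 CPM), Lpin1 (89.5 CPM), Cux2 (84.6 CPM) and Irs2 (62.7 CPM). It lay below them for Ebp (100.1 CPM) and Gm15883 (48.2 CPM).

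Saa1 at 10 mg/L was 195 CPM in C3-1, against 121 to 123 CPM in the other 3 libraries of that pool. At 1 mg/L, C2-4 was the highest for Hspa1b (15.9 CPM) and Xlr3a (17.4 CPM), and C2-3 for Ube2d2b (3.39 CPM). Each of these was nearer to its own group than to the other concentration.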

How the results depend on the processing

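With 8 libraries the 14 calls were 15 with DESeq2's size factors, 12 with upper-quartile scaling, 19 with no filter and 14 with limma-voom. They were 191 with DESeq2, 257 with all 16 libraries in 1 model, 24 with the replicate block, 980 with the class of library as a second term, 1733 with the index of nuclear RNA as a covariate, 2545 without C2-3, C2-4 and C3-4, 81 with C3-4 against C2-3 and C2-4 alone, and 6 to 17 with 1 library left out. The 13 calls of at least 2-fold were 55, 58, 22, 101, 137, 278 and 39 in the same order, and 6 to 16 with 1 library left out. With 5 libraries the 2545 calls were 2503 with upper-quartile scaling (50.6% of them higher, against 56.4% with TMM), 2437 with DESeq2, 1039 with the replicate block and 271 to 5431 with 1 library left out. The 278 of at least 2-fold were 182 with DESeq2, 108 with a minimum of 5 CPM, 133 among protein-coding genes alone and 109 to 579 with 1 library left out. Where 1 library was left at 1 mg/L it was assumed to vary like the other group.

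Of the genes called with 5 libraries and tested with 8, 108 had the opposite sign with 8. Among genes named by rule or checked, with a call in either fit, 5 turned sign. Without C2-3, C2-4 and C3-4 Ucp2 had 0.53, Chkb 0.50, Nr1i3 0.58, Stat2 0.33 and Kcnq1ot1 0.44, against -0.02, -0.02, -0.02, -0.06 and -0.44 with 8 libraries. Nr1i3 had 0.31 with the index of nuclear RNA as a covariate. The cause was not tested; Kcnq1ot1 is in the index by which those 3 libraries were set apart. Deviations of same-numbered libraries correlated at 0.54, 0.17, -0.17 and 0.55. These values cannot decide whether the numbers pair libraries, as C3-4 and C2-4 are both rich in nuclear-retained RNA while C2-3 is and C3-3 is not. The numbers were not taken to pair libraries because the labels tie none across the groups.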
